A study of Mus musculus with 15 samples.

Results

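Marco, Aoah, Fpr1 and Nox1, 4 genes of the 754 on a NanoString myeloid panel, code for proteins that meet bacterial products in the macrophage or make reactive oxygen species. They were chosen by name for these roles, with their counts across the 4 groups of the series already known, in particular the counts of the MPLA and IL4 groups. The values of all 4 genes in MPLA against any other group are therefore given as a description with no p, and the values in the other groups, which were known too, are no independent evidence. The nCounter assay counts colour-coded probes bound to RNA, without amplification, and 1 probe set reads each gene.

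Macrophages were grown from mouse bone marrow in M-CSF (bone marrow-derived macrophages, BMDMs) and conditioned for 4 days with 20 ng/mL of either agent. The MPLA group (4 libraries) received monophosphoryl lipid A, a detoxified lipid A that acts on Toll-like receptor 4, and stood for inflammatory, M1-like cells. The IL4 group (4 libraries) received interleukin-4 and stood for suppressive, M2-like cells. The IL4.IRF5 group (3 libraries, numbered 1, 2 and 4) held IL-4-conditioned cells incubated for 1 h with 1 µg of nanoparticles (NPs) loaded with mRNA of the transcription factor IRF5, and the IL4.eGFP group (4 libraries) held cells given control NPs with eGFP mRNA. The study's methods add that IKKβ mRNA, for the kinase upstream of IRF5, and some eGFP reporter mRNA were in the IRF5 NPs too. Strongly transfected cells were then sorted and put back into IL-4, at a lower dose than in the conditioning, before RNA was taken. The labels do not give this second dose, and no such sorting is described for the MPLA and IL4 groups. The methods give another NP amount than the labels, and which one applies here is not settled. The labels do not say whether the libraries of a group came from separate mice or cultures. A figure legend of the study calls its samples biologically independent, but with a number that fits none of these groups, so each spread and p-value below measures differences between these libraries, which may be technical.

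Macrophages meet bacteria first through surface receptors. MARCO is a class A scavenger receptor that binds bacteria and particles directly, and FPR1 is a G protein-coupled receptor for the formylated peptides that bacterial protein synthesis releases. AOAH is a secreted and lysosomal hydrolase that removes fatty acyl chains from lipopolysaccharide (LPS) and so inactivates it. NOX1 is a catalytic subunit of an NADPH oxidase, best known from colon epithelium and vascular smooth muscle, whereas phagocytes mainly use the related subunit gp91phox, the product of Cybb.

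The 250 bases before the RefSeq transcription start of each gene (assembly GRCm38.p6) are shown because 3 of the genes were high in the same libraries, so that their promoters can be compared by eye. All 4 genes matched the RefSeq table by symbol. The windows lie at chr1:120505025-120505274 (minus strand, Marco), chr17:17883940-17884189 (minus strand, Fpr1), chr13:20793863-20794112 (plus strand, Aoah) and chrX:134111855-134112104 (minus strand, Nox1). Each is written 5′ to 3′ on the strand of its gene, with matches to the motif letters described next in capitals.
Marco: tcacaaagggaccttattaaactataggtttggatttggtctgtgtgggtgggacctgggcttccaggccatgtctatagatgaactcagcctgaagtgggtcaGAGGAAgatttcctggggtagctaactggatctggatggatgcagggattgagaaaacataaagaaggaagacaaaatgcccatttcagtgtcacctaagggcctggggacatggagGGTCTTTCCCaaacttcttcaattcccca
Fpr1: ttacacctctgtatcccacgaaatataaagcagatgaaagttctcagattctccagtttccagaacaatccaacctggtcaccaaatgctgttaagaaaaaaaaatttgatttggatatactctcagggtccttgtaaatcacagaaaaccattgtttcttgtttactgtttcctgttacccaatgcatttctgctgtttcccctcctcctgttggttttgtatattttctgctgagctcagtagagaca
Aoah: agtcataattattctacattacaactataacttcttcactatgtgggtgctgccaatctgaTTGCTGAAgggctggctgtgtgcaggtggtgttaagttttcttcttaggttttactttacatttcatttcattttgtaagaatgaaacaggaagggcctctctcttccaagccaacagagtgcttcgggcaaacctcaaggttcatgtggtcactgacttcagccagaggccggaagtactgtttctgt
Nox1: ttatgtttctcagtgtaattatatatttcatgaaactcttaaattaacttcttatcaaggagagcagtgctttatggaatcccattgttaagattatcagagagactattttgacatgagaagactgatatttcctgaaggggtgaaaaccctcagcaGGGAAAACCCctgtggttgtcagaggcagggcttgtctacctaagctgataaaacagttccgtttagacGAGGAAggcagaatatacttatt

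A set of 6 motifs was searched on both strands, each spelled with N for any base. The PU.1 core letters GAGGAA, of the factor that marks myeloid cells, occurred in Marco, 146 bases before the start, and in Nox1, 23 bases before it. The NF-kB letters GGGANNNNCC occurred in the same promoters, at 29 bases before the start of Marco (as GGTCTTTCCC, on the other strand) and at 92 bases before the start of Nox1 (as GGGAAAACCC). The C/EBP half-site letters TTGCNNAA occurred in Aoah, 189 bases before the start. No 2 of these matches overlap. None of the 6 was found in the Fpr1 window. The AP-1 letters TGANTCA, the STAT6 letters TTCNNNNGAA and the interferon response letters GAAANNGAAA were found in none of the 4 windows. Such short strings are common. Of 32851 RefSeq promoter windows of this length, 23.3% held the PU.1 letters, 17.6% the NF-kB letters, 9.56% the C/EBP letters, 6.75% the AP-1 letters, 5.85% the STAT6 letters and 2.98% the interferon response letters. Among the 572 windows of genes on the panel, 33% held the PU.1 letters and 26.9% the NF-kB letters.

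Before the results, a few facts on the libraries are needed. Total gene counts ran from 266169 (IL4.IRF5 4) to 1784833 (MPLA 1). The background limit of a library was set at 2 SD over the mean of its 8 negative control probes, a limit of 19.7 to 34.9 counts. IL4.eGFP 1 and 2 did not differ beyond the sampling noise (chi-square per degree of freedom 1.09, p = 0.0817). They were counted as 1 sample, which leaves 14 samples and an n of 3 for IL4.eGFP. MPLA 1 and 4, MPLA 2 and 3, IL4.IRF5 1 and 2, and IL4.eGFP 3 and 4 were also nearly identical pairs but differed by more than that noise. Irf5 itself had log2 CPM values of 8.78 to 10.97 in IL4.IRF5 and 10.05 to 10.81 in IL4, and whether its probe reads the delivered mRNA is not stated. Of the 12 macrophage markers on the panel, 11 (all but Aif1) were above background in some library of every group, with list means of 9.90 to 11.46 log2 CPM. Genes of fibroblasts separated the libraries far more strongly. The mean of 8 such genes, among them the collagen genes Col1a2 and Col3a1, was 12.22 to 12.36 log2 CPM in the 4 MPLA libraries, whereas it was 9.58 to 11.49 in IL4 1, 2 and 4, 10.65 in IL4.IRF5 4 and 11.18 to 11.24 in IL4.eGFP 3 and 4. In IL4 3, IL4.IRF5 1 and 2 and IL4.eGFP 1 and 2 it was only 3.90 to 4.52, and there 6 of the 8 genes lay below background throughout (Fn1 passed it in IL4 3 and Col3a1 in 3 of the 5). In such bulk RNA, fewer cells of a type and less RNA per cell cannot be told apart.

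Marco was the gene with the clearest split between the groups. It had 1614, 2051, 2146 and 1554 counts in MPLA 1 to 4. It had 21, 39, 16 and 22 counts in IL4 1 to 4. MPLA libraries were 46.5 to 73.7 times their background limits, and in IL4 only library 2 was above it at all. On the log2 CPM scale (counts scaled to a common library size by TMM, prior count 2) Marco was 9.94 ± 0.28 (SD, n = 4) in MPLA and 4.29 ± 0.43 (SD, n = 4) in IL4. The fitted log2 difference was 5.74 ± 0.34 (SE), which ranked 1st of the 754 genes. Since most IL4 counts were not above background, the direct reading of the difference is a bound, and Marco was at least 39.8-fold higher in MPLA. This bound sets the MPLA mean against the higher of the count and the background limit in each IL4 library, as means of log2 values.

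Marco was low in both nanoparticle groups too. Its counts were 30, 13 and 40 in IL4.IRF5 1, 2 and 4. Its counts were 11, 14, 49 and 40 in IL4.eGFP 1 to 4. Only IL4.IRF5 4 and IL4.eGFP 3 and 4 exceeded background, by at most 2.03 times, and all 3 were libraries with high fibroblast genes. Group levels were 5.01 ± 1.37 (SD, n = 3) and 4.95 ± 1.13 (SD, n = 3) log2 CPM. MPLA was the highest group, and the other 3 overlapped and lay mostly below background, so their order for Marco cannot be read. The fitted log2 difference of Marco from MPLA was -4.43 ± 0.80 (SE) in IL4.IRF5, -3.95 without IL4.IRF5 2 and -5.68 without IL4.IRF5 4. Its size depends on background, since only IL4.IRF5 4 was above it. No bound is given here, since one formed as for IL4 did not lie below the fitted value. In IL4.eGFP Marco was at least 25.3-fold lower than in MPLA.

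Fpr1, the receptor for formyl peptides, had much the same pattern. It had 860, 542, 498 and 745 counts in MPLA 1 to 4. It had 11, 28, 18 and 16 counts in IL4 1 to 4. The groups did not overlap, and again only IL4 2 exceeded its background limit. Its level was 8.45 ± 0.35 (SD, n = 4) log2 CPM in MPLA and 3.90 ± 0.49 (SD, n = 4) in IL4, and the fitted log2 difference of 4.67 ± 0.34 (SE) ranked 3rd of 754. As a bound, Fpr1 was at least 15.3-fold higher in MPLA. In IL4.IRF5 1, 2 and 4 it had 16, 18 and 21 counts, all below background. In IL4.eGFP 1 to 4 it had 14, 17, 42 and 31 counts, of which the last 2 were above. The 3 IL-4-conditioned groups overlapped (4.56 ± 0.87 log2 CPM in IL4.IRF5 and 4.85 ± 0.81 in IL4.eGFP, SD, n = 3 each). Fpr1 was at least 9.12-fold lower in IL4.IRF5 and at least 10.3-fold lower in IL4.eGFP than in MPLA.

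Nox1, the oxidase subunit, split the groups in the same way. It had 348, 234, 234 and 366 counts in MPLA 1 to 4. It had 19, 37, 10 and 20 counts in IL4 1 to 4. The MPLA libraries were 7.26 to 13.7 times their background limits, and IL4 2 was the only library of the other groups above its own. Its level was 7.29 ± 0.32 (SD, n = 4) log2 CPM in MPLA and 4.06 ± 0.59 (SD, n = 4) in IL4. The fitted log2 difference was 3.29 ± 0.37 (SE), the 13th highest of 754, and the bound was at least 6.40-fold. Nox1 had 19, 13 and 23 counts in IL4.IRF5 1, 2 and 4. It had 24, 21, 18 and 14 counts in IL4.eGFP 1 to 4. None of these 7 libraries exceeded background, so the order of the 3 IL-4-conditioned groups for Nox1 cannot be read. Against MPLA it was at least 4.09-fold lower in IL4.IRF5 and at least 6.02-fold lower in IL4.eGFP.

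Aoah, the LPS deacylase, did not follow the other 3 genes. It had 1068, 811, 847 and 1137 counts in MPLA 1 to 4. It had 88, 1243, 168 and 202 counts in IL4 1 to 4. Library IL4 2 alone was higher than every MPLA library, while the other IL4 libraries were well below them, so the groups overlapped. The level was 9.01 ± 0.20 (SD, n = 4) log2 CPM in MPLA and 7.60 ± 1.53 (SD, n = 4) in IL4, and the fitted log2 difference was 0.76 ± 0.71 (SE). Without IL4 2 the difference was 2.13, so that 1 library decides its size. Aoah was the only one of the 4 genes above background in all 15 libraries, and the spread in IL4 is therefore measured and not set by background.

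Both nanoparticle groups had low Aoah. Its counts were 74, 84 and 54 in IL4.IRF5 1, 2 and 4. Its counts were 61, 46, 46 and 25 in IL4.eGFP 1 to 4. The IL4.eGFP libraries were only 1.27 to 2.08 times their background limits. On the log2 CPM scale IL4.IRF5 stood at 6.42 ± 0.43 (SD, n = 3) and IL4.eGFP at 5.36 ± 0.38 (SD, n = 3), so the order of levels was MPLA, IL4, IL4.IRF5 and IL4.eGFP. MPLA overlapped IL4, and IL4 overlapped IL4.IRF5. The fitted log2 difference from MPLA was -2.46 ± 0.33 (SE) in IL4.IRF5 and -3.71 ± 0.26 (SE) in IL4.eGFP.

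**Figure D1:**
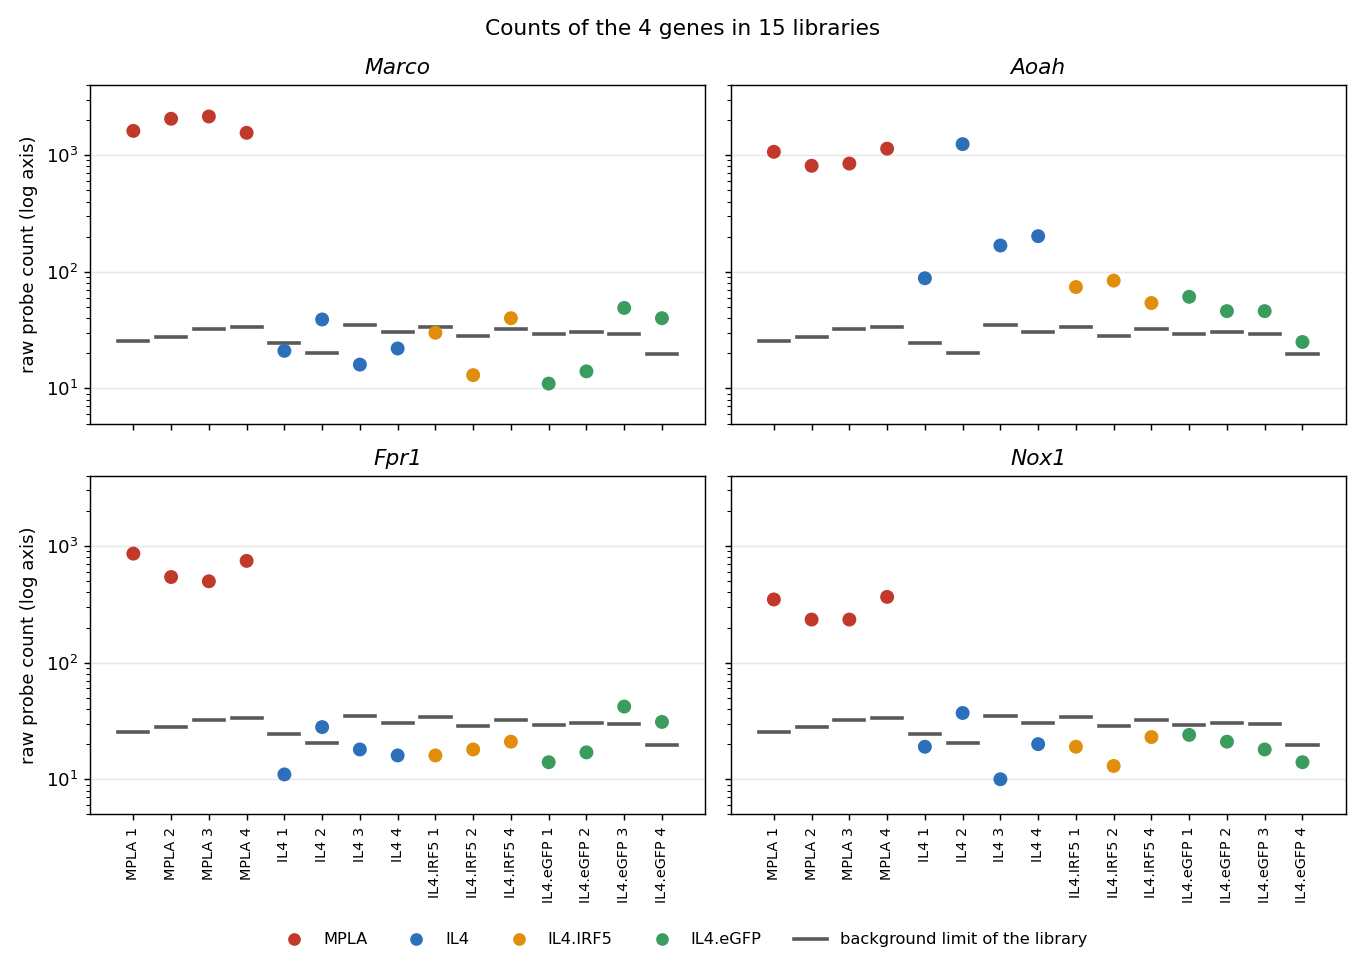
Raw probe counts (log axis) of Marco, Aoah, Fpr1 and Nox1 in each of the 15 libraries, coloured by group, with a grey bar at the background limit of each library. Marco, Fpr1 and Nox1 lie far above the bars in the 4 MPLA libraries and near or below them elsewhere, whereas Aoah is above its bar in every library and highest in IL4 2 with 1243 counts.

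In the comparison of MPLA with IL4, 3 of the 4 genes (Marco, Fpr1 and Nox1) were called higher by edgeR, beside 12.2% of all 754 genes. The same 3 had no overlap between the groups, beside 22.1% of all genes that were higher without overlap. Against MPLA all 4 genes were called lower in both nanoparticle groups, beside 12.9% of all genes for IL4.IRF5 and 12.5% for IL4.eGFP. The call of Nox1 in IL4.IRF5 was lost in 10 of 18 alternatives, among them the fibroblast covariate and each fit that left out a library other than IL4.IRF5 4. These contrasts share the MPLA libraries, which were in view when the genes were chosen, and nothing is read from the counts. With the near-identical pairs summed to 1 sample each, none of the 4 genes (and no gene of the 754) was called in either nanoparticle group against MPLA. Within MPLA the near-identical pairs moved apart in opposite ways for the genes. Libraries 1 and 4 exceeded 2 and 3 by 0.55 in Fpr1, 0.53 in Nox1 and 0.34 in Aoah (log2 CPM), whereas Marco differed by -0.47. Gaps inside the pairs were 0.04 to 0.27.

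The next question was whether these genes differed among the IL-4-conditioned groups. Against IL4, effects of the particles cannot be told apart from those of the sorting and the second IL-4 dose in the nanoparticle groups. The counts of these groups were also known when the genes were chosen, so the p-values below describe the fits and are not independent evidence. No gene of the 754 was called by edgeR (0% called) in IL4.IRF5 against IL4, in IL4.eGFP against IL4 or in IL4.IRF5 against IL4.eGFP. At an unadjusted p under 0.05 there were 53, 84 and 42 genes, or 7.03%, 11.1% and 5.57%. Aoah in IL4.eGFP against IL4 and Aoah in IL4.IRF5 against IL4.eGFP were the only values of the 4 genes among them. DESeq2 called Aoah in IL4.eGFP against IL4, beside 7.27% of the genes to which it gave an adjusted p (53 genes). It called none of the 4 genes in the other comparisons, beside 2.61% of genes (19) in IL4.IRF5 against IL4 and 1.41% (7) between the particles, where Fpr1 and Nox1 got no adjusted p.

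Aoah had the largest differences of the 4 genes when all libraries were fitted. With IL4.eGFP it was lower than IL4 by a log2 difference of -3.08 ± 0.96 (SE, edgeR adjusted p = 0.285, n = 3 and 4), with every IL4.eGFP library below every IL4 library. Of all genes, 6.9% were lower without overlap in this comparison. DESeq2 put the difference at -2.96 with an adjusted p of 0.00942, so the call depends on the test (adjusted p of 0.00942 to 1 over the alternatives). Without IL4 2, edgeR gave -1.57 (adjusted p = 0.324). With IL4.IRF5 the log2 difference from IL4 was -1.96 ± 0.92 (SE, edgeR adjusted p = 0.787, n = 3 and 4), and it was -0.48 without IL4 2. In that fit Marco (1.36), Fpr1 (1.00) and Nox1 (0.96) differed by more than Aoah, none of them called.

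Between the 2 particles, Aoah was higher with IL4.IRF5 by 1.16 ± 0.44 on the log2 scale (SE, edgeR adjusted p = 0.829, n = 3 and 3). The log2 CPM values did not overlap, beside 7.96% of all genes that were higher without overlap, although the raw counts did (54 in IL4.IRF5 4 and 61 in IL4.eGFP 1), since IL4.IRF5 4 was the shallowest library. Libraries of the 2 particle groups with the same number deviated together, but this cannot show that the numbers are pairs. In both groups libraries 1 and 2 were near-identical with low fibroblast genes, whereas library 4 had high fibroblast genes. Compared by number, with IL4.eGFP 1 and 2 taken separately, Aoah was higher with IL4.IRF5 by 0.24 in pair 1, 0.92 in pair 2 and 1.97 in pair 4 (log2 CPM). Pairs 1 and 2 consist of near-identical libraries on both sides and are hardly distinct. The fit with the number as a block gave 0.97 (edgeR adjusted p = 0.365, with 0.174 to 1 over the alternatives).

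For Marco the edgeR log2 difference was 1.02 ± 0.67 with IL4.IRF5 against IL4 (SE, adjusted p = 0.831), 0.74 ± 0.53 with IL4.eGFP against IL4 (adjusted p = 0.624) and 0.36 ± 0.97 between the particles (adjusted p = 0.912). Fpr1 gave 0.69 ± 0.53 (SE, edgeR adjusted p = 0.846), 0.94 ± 0.46 (adjusted p = 0.464) and -0.18 ± 0.72 (adjusted p = 0.939) in the same order. These receptors thus had no called difference, and most of the counts behind the values were at or below background. Nox1 gave 0.53 ± 0.61 (SE, edgeR adjusted p = 0.868), 0.01 ± 0.38 (adjusted p = 0.994) and 0.59 ± 0.68 (adjusted p = 0.834). Without IL4.IRF5 4 the difference of IL4.IRF5 from IL4 was -0.11 in Marco, -0.02 in Fpr1 and -0.32 in Nox1, so the positive sign of these 3 genes rests on that library. With counts below background in all libraries of the 3 groups but IL4 2, a fall or a small rise of Nox1 was not detectable.

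**Figure D2:**
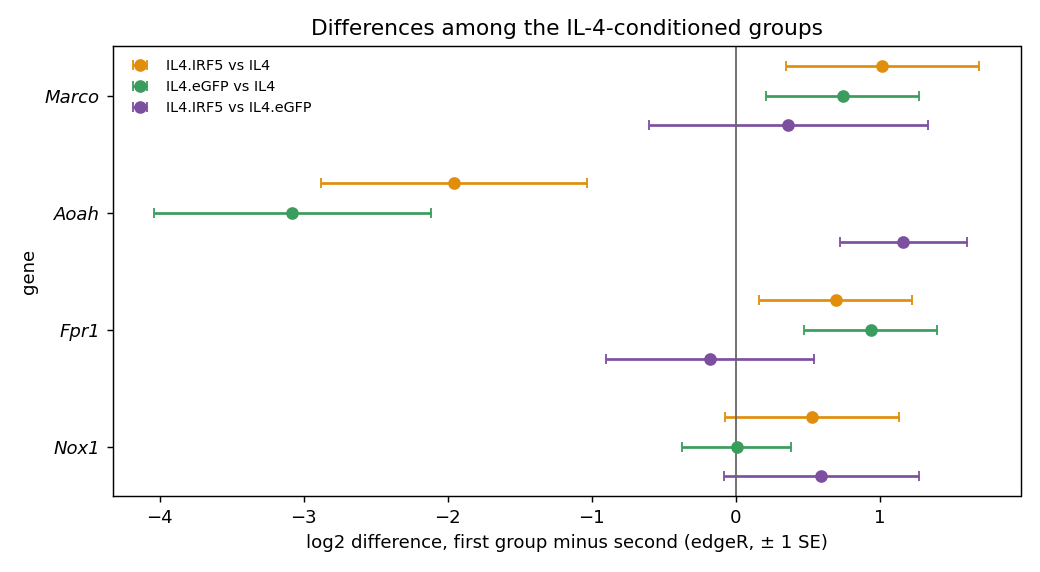
Fitted log2 differences (edgeR, first group minus second) of the 4 genes in the 3 comparisons among IL-4-conditioned groups, with bars of 1 SE. Aoah lies at -1.96 and -3.08 against IL4 and at 1.16 between the particles, while the other 3 genes lie between -0.18 and 1.02.

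Fibroblast genes moved with part of these results. Among the 11 IL-4-conditioned libraries, 6 had a fibroblast gene mean of 9.55 to 11.46 log2 CPM and 5 had a mean of 3.77 to 4.50, computed on 15 separate libraries. Marco was above background in 4 of the 6 libraries (21 to 49 counts) and in 0 of the 5 (11 to 30 counts). Fpr1 was above background in 3 of the 6 and in 0 of the 5, and Nox1 in 1 of the 6 and in 0 of the 5. Aoah was above background in all of both sets, with 25 to 1243 counts in the first and 46 to 168 in the second. The 5 include the near-identical pairs IL4.IRF5 1 and 2 and IL4.eGFP 1 and 2, and the 6 include IL4.eGFP 3 and 4. The libraries of the 2 sets are therefore not all separate samples. Background limits were 19.7 and 20.3 counts in IL4.eGFP 4 and IL4 2 but 28.4 to 34.9 in the 5, which also affects what passes. The MPLA libraries had the highest fibroblast means of all, and with this mean as a covariate the MPLA minus IL4 log2 difference was 5.43 in Marco, 4.71 in Fpr1, 2.77 in Nox1 and 0.12 in Aoah. With the same covariate the IL4.IRF5 minus MPLA log2 difference was -2.57 in Marco (-4.43 without it), -2.23 in Fpr1 (-3.72 without it), -0.88 in Nox1 (-2.53 without it) and -1.62 in Aoah (-2.46 without it), and Nox1 was no longer called. Without IL4.IRF5 4, the only library of its group with high fibroblast genes, and with no covariate, the same difference was -5.68 in Marco, -4.53 in Fpr1, -3.46 in Nox1 and -2.86 in Aoah. IL4.IRF5 4 was also the shallowest library, with a background limit of 70.5 CPM, against 29.9 and 26.1 CPM in IL4.IRF5 1 and 2. In this group depth and fibroblast genes cannot be told apart. With the covariate, the IL4.eGFP minus MPLA log2 difference was -4.10 in Marco (-4.89 without it), -3.02 in Fpr1 (-3.62 without it), -3.31 in Nox1 (-3.17 without it) and -3.89 in Aoah (-3.71 without it). The part of fibroblast RNA in the levels of the 4 genes was not tested beyond this.

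**Figure D3:**
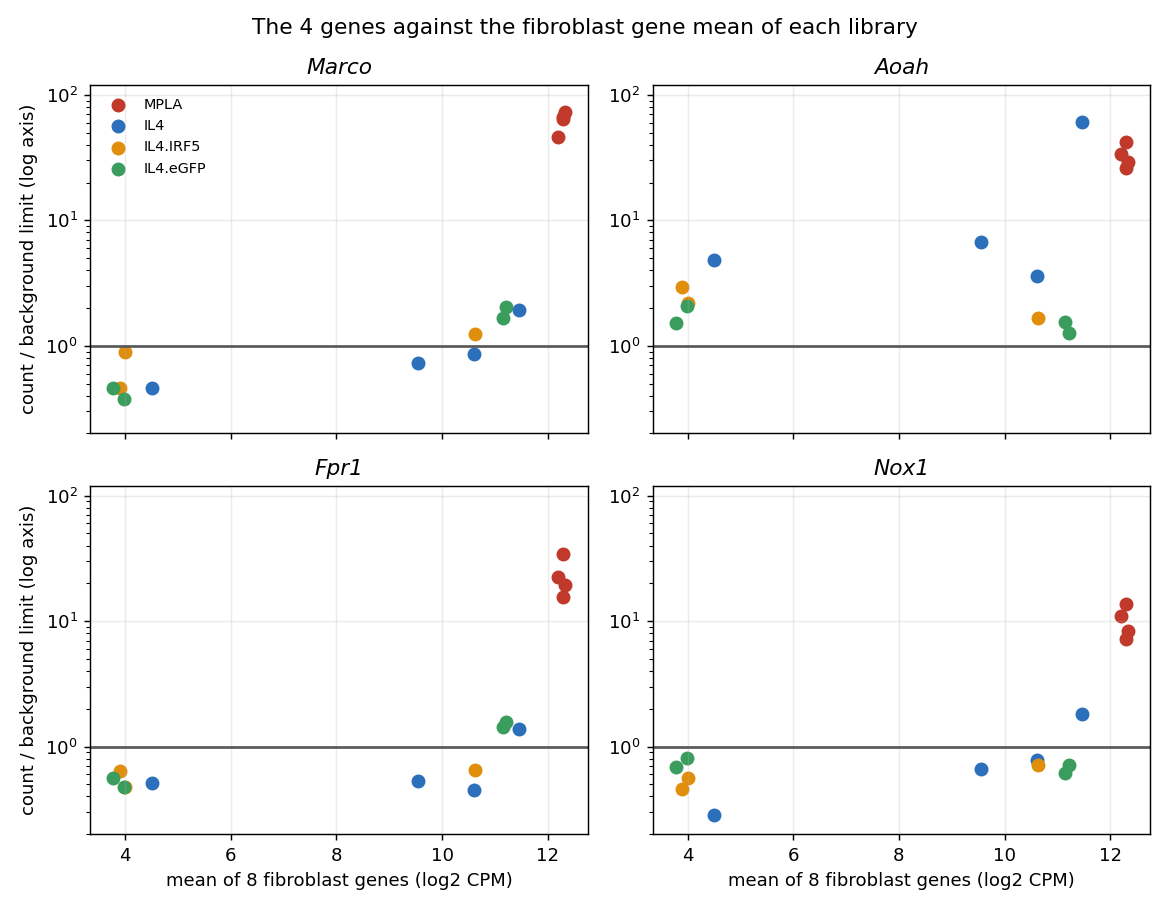
Count divided by the background limit of the library (log axis) for each gene, against the mean log2 CPM of 8 fibroblast genes, with 1 point for each of 15 libraries coloured by group; the grey line marks the background limit. Outside MPLA, Marco passes the line in IL4 2, IL4.IRF5 4 and IL4.eGFP 3 and 4, Fpr1 in IL4 2 and IL4.eGFP 3 and 4, and Nox1 in IL4 2 alone. All of these have high fibroblast genes, but IL4 1 and 4, with means of 10.61 and 9.55, pass for none of the 3 genes. Aoah lies above the line at either end.

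Neutrophils also carry receptors for formyl peptides and were checked by 11 markers. The list mean was 4.93 to 5.13 log2 CPM in MPLA, 4.05 to 4.85 in IL4, 4.47 to 5.05 in IL4.IRF5 and 4.31 to 4.63 in IL4.eGFP. In MPLA 5 of the 11 were above background in some library, namely S100a8 (293 to 644 counts), Camp (328 to 863), Mmp8 (347 to 427), Mmp9 (173 to 315) and Csf3r (64 to 94). The other 6, Ly6g, Elane, Mpo, S100a9, Cxcr2 and Ctsg, were below background in all 4 MPLA libraries, with 5 to 26 counts. In IL4 the counts were 18 to 33 for S100a8, 15 to 28 for Camp, 6 to 442 for Mmp8, 36 to 103 for Mmp9 and 49 to 180 for Csf3r. There 7 of the 11 were above background in some library, these 5 and also Elane (50 counts) and Mpo (28 counts), both in IL4 2 alone. IL4 2 was also the only IL4 library with Marco, Fpr1 and Nox1 above background. Of the 11 markers, 4 passed in some library of IL4.IRF5 and 5 in some library of IL4.eGFP. S100a8 had 82 and 69 counts in IL4.IRF5 1 and 2. The part of neutrophil RNA in the levels of the 4 genes was not tested.

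Genes of related function were taken from 5 lists, with 55 genes on the panel besides the 4. The lists were chosen with earlier results of these data known, so their p-values are no independent evidence. In MPLA against IL4, 9 of the 55 were called higher (16.4%, beside 12.2% of all genes) and 11 lower (20%, beside 14.2%), and the median log2 difference was -0.29, beside -0.05 over all genes. Both shares were near those of all genes. Without MPLA 1 or without MPLA 4 these counts were 5 and 3. Without MPLA 2, 6 were called lower, without MPLA 3, 7, and without IL4 2, 14 were called higher. With the near-identical pairs summed, 3 were called higher and 0 lower, so none of the falls named next, and at most 3 of the rises, were called in that fit. With housekeeping scaling the median of all genes was -0.33 and the split over all genes went from 92 higher and 107 lower to 45 and 123. All differences named in the following paragraphs are edgeR log2 differences ± SE, MPLA minus IL4, n = 4 and 4. For a called gene other than Fpr2 with libraries of the lower group below background, a bound on the fold, formed as for Marco, stands beside the fitted value, whose size depends on that background.

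Of 15 genes for the recognition of LPS and other microbial products and for the signalling that follows it, 3 rose, 3 fell and 9 did not pass the test (median -0.02). Cd14, the co-receptor that hands LPS to Toll-like receptor 4, had 8695 to 12993 counts in MPLA and 961 to 1505 in IL4, and rose by 2.53 ± 0.28 (adjusted p = 0.000702). The flagellin receptor Tlr5 rose by 1.21 ± 0.29 (adjusted p = 0.0187), but 0 of 4 IL4 libraries were above background and the bound was at least 1.49-fold. The muramyl dipeptide sensor Nod2 rose by 0.73 ± 0.23 (adjusted p = 0.0492), with 1 of 4 IL4 libraries above background and a bound of at least 1.30-fold. Clec7a, the β-glucan receptor dectin-1, fell (-3.70 ± 0.49, adjusted p = 0.00198). Tlr4 itself fell (-0.68 ± 0.19, adjusted p = 0.0349), as did Tlr1 (-0.65 ± 0.18, adjusted p = 0.0319).

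Of 13 scavenger and uptake receptors, the class of genes nearest to Marco, 1 rose, 3 fell and 9 did not pass (median -0.83). The endocytic receptor Stab1 rose by 1.21 ± 0.30 (adjusted p = 0.0220). The mannose receptor Mrc1 fell (-2.92 ± 0.64, adjusted p = 0.0143), the lipid scavenger receptor Cd36 (-2.82 ± 0.69, adjusted p = 0.0220) and the IgG receptor Fcgr3 (-1.77 ± 0.24, adjusted p = 0.00217). Mrc1 and Clec7a are known as genes that IL-4 raises in macrophages.

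Of 10 chemoattractant receptors, 2 rose, 4 fell and 4 did not pass (median -0.69). Fpr2, the relative of Fpr1 with a wider range of peptide ligands, rose by 4.05 ± 0.84 (adjusted p = 0.0117), from 11 to 146 counts in IL4 (1 of 4 libraries above background) to 864 to 1374 in MPLA. No bound is given for Fpr2, since one formed in this way did not lie below the fitted value. The complement C5a receptor C5ar1 rose by 1.52 ± 0.30 (adjusted p = 0.00933). The chemokine receptors Ccr2 and Ccr1 fell (-3.46 ± 0.74, adjusted p = 0.0135, and -1.35 ± 0.30, adjusted p = 0.0146). Ccr2 was above background in 1 of 4 MPLA libraries and was at least 6.45-fold higher in IL4. The lipid mediator receptors Ptafr and Ltb4r1 fell (-1.48 ± 0.46, adjusted p = 0.0465, and -1.33 ± 0.34, adjusted p = 0.0237). Ltb4r1 was above background in 0 of 4 MPLA libraries and was at least 1.73-fold higher in IL4.

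Of 8 other genes for oxidases and reactive species, none was called (median 0.25). Cybb, the phagocyte oxidase subunit, differed by 0.20 ± 0.42 (adjusted p = 0.751). Nox4 differed by 1.27 ± 0.55 (adjusted p = 0.119), and the nitric oxide synthase Nos2 by 0.49 ± 0.67 (adjusted p = 0.617). Mpo, Epx and Nox3 were at or near background.

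Of 9 genes for antimicrobial and lipid-modifying products, 3 rose, 1 fell and 5 did not pass (median 0.67). The cathelicidin gene Camp rose by 4.09 ± 0.42 (adjusted p = 0.000620), the calprotectin subunit S100a8 by 3.63 ± 0.40 (adjusted p = 0.000702) and the leukotriene-forming Alox5 by 1.88 ± 0.42 (adjusted p = 0.0151). In IL4, Camp and Alox5 were above background in 2 of 4 libraries and S100a8 in 1 of 4, and the bounds were at least 12.0-fold for Camp, 9.98-fold for S100a8 and 3.39-fold for Alox5. Chil3, a chitinase-like gene that IL-4 is known to raise, fell (-7.31 ± 1.42, adjusted p = 0.00918), although IL4 2 had only 13 counts of it. With 0 of 4 MPLA libraries above background, Chil3 was at least 21.2-fold higher in IL4. None of the 55 genes was called in the 3 comparisons among the IL-4-conditioned groups.

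**Figure D4:**
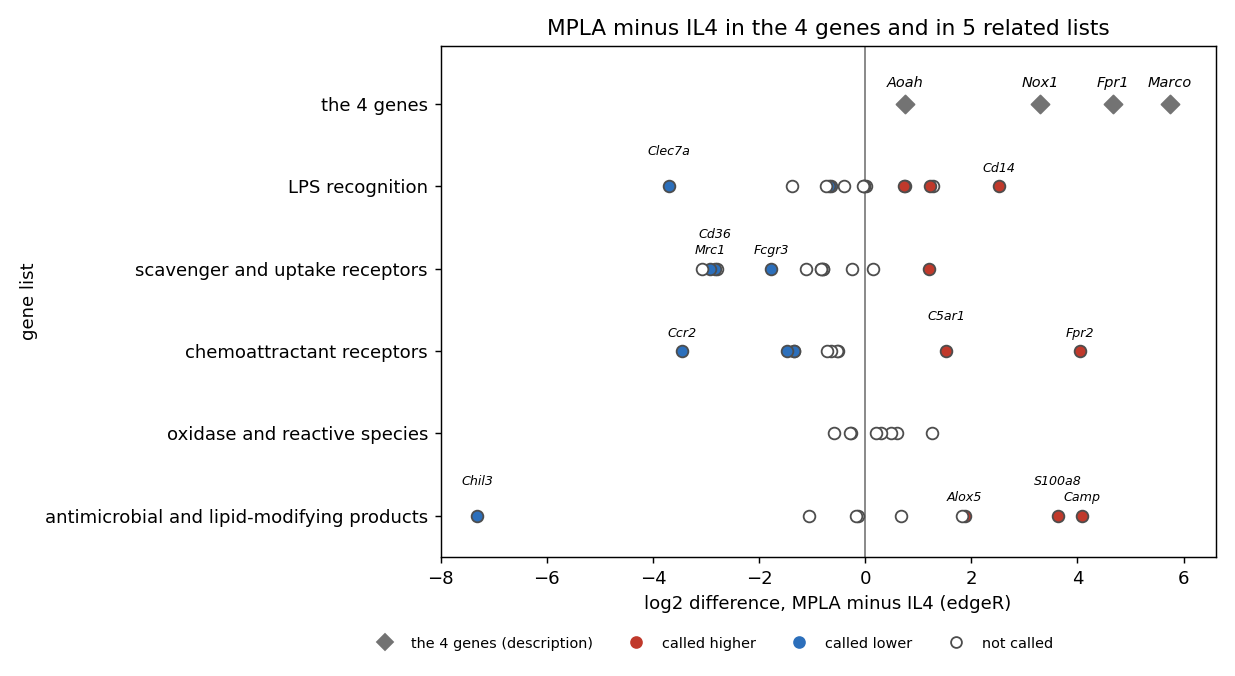
Log2 differences (edgeR, MPLA minus IL4) of the 4 genes (grey diamonds, given as a description) and of the 55 genes in 5 related lists, filled red where called higher, blue where called lower and white where not called; called genes with an absolute difference over 1.5 are named. Every list but that for oxidases has called genes on both sides, and points of genes at background in the lower group, such as Chil3, are fitted values whose size depends on that background.

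Finally, the genes on the panel with the most similar course over the 14 samples were sought for each of the 4, by the root-mean-square difference of log2 CPM after each gene was centred on its own mean, among 590 genes above background in at least 4 libraries. Much of any likeness comes from the contrast of MPLA with the rest, which the genes share. The nearest to Marco were Fpr1 (0.71), Fpr2 (0.79) and the neutrophil-attracting chemokine Cxcl2 (0.80), against a median of 2.47 over all genes. The nearest to Fpr1 were Cxcl2 (0.43), Camp (0.59) and Marco (0.71), with a median of 1.97. The nearest to Nox1 were the fractalkine receptor Cx3cr1 (0.45), the chemokine Ccl4 (0.52) and Cxcl2 (0.53), with a median of 1.55. Cxcl2, near all 3, had 594 to 1024 counts in MPLA and 18 to 40 in IL4.

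Aoah had other neighbours, all with a high value in IL4 2. They were the high-affinity IgG receptor Fcgr1 (0.64), Tlr2 (0.66) and the co-stimulatory ligand Cd86 (0.68), with a median of 1.67. Fcgr1 had 131, 5411, 513 and 170 counts in IL4 1 to 4 and 1005 to 1454 in MPLA. Cd86 had 38, 1147, 103 and 107 counts in IL4 1 to 4 and 249 to 298 in MPLA. For both, as for Aoah, library IL4 2 exceeded every MPLA library, whereas Tlr2 had 371 counts in IL4 2, below the 471 to 601 of MPLA. Aoah itself lay 1.87 from Marco, 1.52 from Fpr1 and 1.12 from Nox1 on this measure, while Fpr1 and Nox1 were 0.72 apart.

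**Figure D5:**
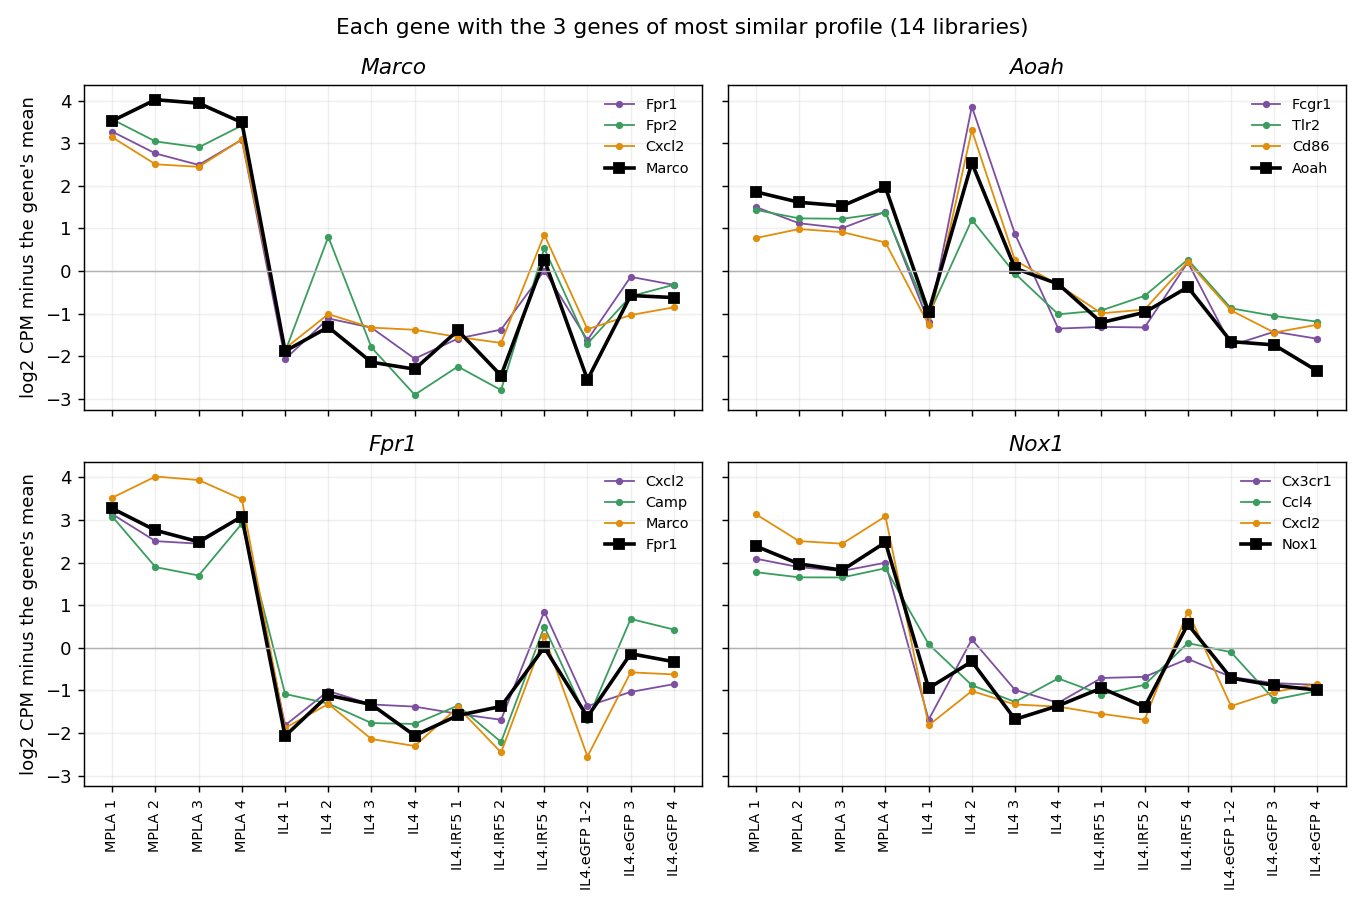
Log2 CPM minus the mean of the gene over 14 samples, for each of the 4 genes (black squares) and the 3 genes with the most similar profile (coloured), with the samples on the x axis in group order. Marco, Fpr1 and Nox1 and their neighbours step down after MPLA 4, whereas Aoah, Fcgr1 and Cd86 peak in IL4 2.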

How the data were processed

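Expression of 754 genes in 15 libraries of mouse BMDMs was measured with the nCounter Myeloid Innate Immunity panel. The authors deposited raw probe counts for 768 probes (754 genes, 6 positive and 8 negative controls), in whole numbers and with no normalization. Per the study's methods, a quality check, housekeeping normalization, log2 transformation and the methods' t-test with Benjamini-Yekutieli rates followed, but these values were not used. Groups and replicate numbers came from the labels, and 0 columns stayed unused. Totals of 266169 to 1784833 counts per library set the precision, and lane or cartridge was not given in the sources used here.

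The 4 genes, the 5 pathway lists, the marker lists and the rule for naming genes were chosen with earlier results of these data known. The rule named the 4 genes, the 3 genes of nearest profile to each, and up to 4 called genes per direction and list in MPLA against IL4. Oxidase genes that were not called and the neutrophil markers were named after their values were seen.

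Each comparison was fitted on its 2 groups alone by edgeR's quasi-likelihood test (edgeR 4.0.16, R 4.3.3) with TMM scaling and no filter on low counts. Calls used a two-sided Benjamini-Hochberg adjusted p under 0.05 over all 754 genes. SE was taken as the size of the log2 difference over the root of its F statistic. IL4.eGFP 1 and 2 (chi-square per degree of freedom 1.09, over genes that summed to 40 or more) were summed; the 4 other near-identical pairs reached up to 2.56, and the remaining 16 pairs within groups lay at 41.4 to 1250. The script was tested on simulated counts.

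Same-numbered libraries deviated together in IL4.IRF5 against IL4.eGFP (correlations of 0.82 in all 3 pairs), and these numbers were taken as pairs. The correlations cannot show that they are pairs, since libraries 1 and 2 of each group are near-identical and library 4 differs in fibroblast genes. In the other comparisons same-numbered libraries did not all deviate together. Alternatives were DESeq2 1.42.0, limma 3.58.1, the methods' t-test, 2 other scalings, a background filter, background subtraction, 1 fit of all groups, IL4.eGFP 1 and 2 kept apart, near-identical pairs summed, a replicate block, a fibroblast covariate and each library left out. Gene names matched a RefSeq symbol (GRCm38.p6) for 744 genes, a synonym for 9 and neither for 1. Promoter windows are RefSeq's.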

Additional observations from a re-analysis of the deposited data

How the results depend on the processing

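Most values kept their direction. Over 19 alternatives the MPLA minus IL4 log2 difference stayed within 5.40 to 7.25 in Marco, 4.33 to 6.53 in Fpr1, 2.77 to 4.89 in Nox1 and 0.12 to 2.13 in Aoah. Of the 4 genes, 3 were called in MPLA against IL4 and 0 with the methods' t-test, and 3 to 4 when a library was left out, Aoah being added without IL4 2. For IL4.eGFP against IL4, 0 were called (0 of all genes) and 1 (Aoah) with DESeq2 (53 of all genes). For IL4.IRF5 against MPLA, 4 were called, 0 with the methods' t-test, 0 with near-identical pairs summed and 3 to 4 when a library was left out. With background subtracted 3 were called, and Marco was not. For IL4.eGFP against MPLA, 4 were called, 1 with the methods' t-test, 0 with pairs summed and 3 (not Fpr1) with background subtracted. The 4 genes were chosen with the MPLA values in view, so their calls against MPLA are a description only. Of the 55 list genes, the 9 called higher in MPLA became 5 with housekeeping scaling, with background subtracted and with the fibroblast covariate, 0 with the methods' t-test, 3 with pairs summed and 5 to 14 when a library was left out. The 11 called lower became 0 with the methods' t-test and with pairs summed, 6 with 1 fit of all groups, 7 with the fibroblast covariate and 3 to 15 when a library was left out. The causes were not tested.

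The sign was not stable where counts lay near background. IL4.IRF5 minus IL4 was -0.58 in Fpr1 and -0.38 in Nox1 with background subtracted. When a library was left out it ranged from -0.11 to 1.48 in Marco, -0.018 to 1.02 in Fpr1 and -0.32 to 0.96 in Nox1, each lowest without IL4.IRF5 4. IL4.eGFP minus IL4 in Nox1 (0.01) was -0.27 with housekeeping scaling, -0.37 with background subtracted, -0.092 with limma and with the methods' t-test, and -0.10 to 0.49 with a library left out (below 0 without IL4 3 or IL4 4). IL4.IRF5 minus IL4.eGFP in Fpr1 (-0.18) was 0.13 with housekeeping scaling, 0.076 with median scaling, 0.052 with limma and with the methods' t-test, 0.34 with pairs summed, 0.35 with the fibroblast covariate and -0.99 to 0.18 with a library left out (above 0 without IL4.IRF5 1 or 2). With background subtracted Fpr1 was -2.64, the lowest value of the alternatives. In that comparison Nox1 was -0.014 with background subtracted and -0.36 to 1.00 with a library left out, and Marco -0.88 to 0.85 (below 0 without IL4.IRF5 4 or IL4.eGFP 1 and 2).

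With the replicate block, Fpr1 was 0.16 in IL4.IRF5 against IL4.eGFP, where the numbers were taken as pairs, and no gene of the 4 changed its call there. Elsewhere the libraries share only a number: the block left 0 of the 4 genes called in IL4.IRF5 against MPLA and 5 of the list genes called lower in MPLA.

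Over all genes, the 199 calls in MPLA against IL4 ranged from 1 to 295 over the alternatives, the 184 in IL4.IRF5 against MPLA from 0 to 566 and the 148 in IL4.eGFP against MPLA from 0 to 428. The 0 calls became up to 19 in IL4.IRF5 against IL4, 53 in IL4.eGFP against IL4 and 16 between the particles. With median scaling, calls split into 75 higher and 132 lower in MPLA against IL4, 192 and 59 in IL4.IRF5 against MPLA (87 and 97 before; 109 and 73 with housekeeping scaling) and 81 and 79 in IL4.eGFP against MPLA (54 and 94 before). The filter for genes above background in at least 3 libraries removed Marco, Fpr1 and Nox1 from IL4.IRF5 against IL4, Nox1 from IL4.eGFP against IL4, and Fpr1 and Nox1 from the comparison of the particles, so it gave no value there. With 3 or 4 libraries a group, some nearly identical, precision is limited by their number, and outside MPLA by background in Marco, Fpr1 and Nox1.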
